A study of Mus musculus with 46 samples.

Results

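The genes described here are those that make a red blood cell: 29 named erythroid and globin genes. They were picked by symbol and not by their values, though with earlier results of these data known. Of them, 28 had a row among the 33331 gene rows of the deposited tables. They comprise 6 globin genes, 5 genes of heme synthesis and iron uptake, 7 of the red cell membrane and its skeleton, 4 that carry or border blood group antigens, 4 regulators and receptors, and a chaperone and a ligase of maturing red cells. The globin gene Hbb-bs was not analysed here. Whether a row named Hbb-b1, no member of the set, holds its reads could not be settled. All 28 genes passed the filter on low counts over all groups. They were read in poly(A)-selected RNA of mouse embryonic gonads, taken as whole pairs at E12.5, in 46 libraries of 12 groups. The study mutated Enh13, a remote enhancer of Sox9, a gene of testis development, and collected XX and XY embryos of each genotype. The XX groups were WT (n = 3), 1bp-ins-het (n = 3), 1bp-ins-hom (n = 5), 3bp-del-het (n = 3), 3bp-del-hom (n = 5) and 3bp-12bp-del-hom (n = 5), where het and hom stand for heterozygous and homozygous. XY embryos had the same genotypes and group sizes, but 3bp-12bp-del-hom had n = 3. What 3bp-12bp-del stands for and the strain are not stated in the labels. Nothing there says whether replicates came from different embryos, so the p-values measure only the spread between these libraries, which may be technical.

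Red cells carry hemoglobin, a tetramer of alpha-type and beta-type globin chains that each hold a heme. In the mouse, the first red cells arise in the yolk sac and are called primitive; they circulate with a nucleus and make the embryonic chains from Hba-x, Hbb-y and Hbb-bh1 as well as adult alpha chains. Definitive red cells come later from the fetal liver and make the adult chains from Hba-a1, Hba-a2 and the adult Hbb genes. At mid-gestation the blood in an organ is mostly primitive, and RNA of these genes in a dissected gonad is commonly read as a measure of the blood it holds. In bulk RNA, fewer red cells and less of a transcript per red cell cannot be told apart.

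The globin genes lie in 2 clusters, and how alike their coding sequences are decides which of them can be told apart by reads. By GENCODE M21, Hba-x (chr11:32276400-32278116), Hba-a1 (chr11:32283511-32284465) and Hba-a2 (chr11:32296489-32297298) lie on the plus strand. Hbb-bt (chr7:103812524-103813996), Hbb-bs (chr7:103826534-103828096), Hbb-bh1 (chr7:103841637-103843164) and Hbb-y (chr7:103851749-103853216) lie on the minus strand. The first 60 coding bases of each follow, and capitals mark the bases that differ from a partner: Hba-a2 for Hba-a1 and the reverse, Hba-a1 for Hba-x, Hbb-bs for Hbb-bt and the reverse, and Hbb-y and Hbb-bh1 for each other.
Hba-a1: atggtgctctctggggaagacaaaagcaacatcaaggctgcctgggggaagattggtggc
Hba-a2: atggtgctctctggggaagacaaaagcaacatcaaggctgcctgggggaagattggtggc
Hba-x: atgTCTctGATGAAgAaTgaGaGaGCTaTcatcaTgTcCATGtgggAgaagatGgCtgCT
Hbb-bt: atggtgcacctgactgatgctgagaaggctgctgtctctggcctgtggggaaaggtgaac
Hbb-bs: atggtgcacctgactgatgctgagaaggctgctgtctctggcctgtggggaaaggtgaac
Hbb-y: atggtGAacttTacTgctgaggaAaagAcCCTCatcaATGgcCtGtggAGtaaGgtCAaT
Hbb-bh1: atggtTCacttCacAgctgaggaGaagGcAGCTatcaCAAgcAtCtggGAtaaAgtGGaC

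Hba-a1 and Hba-a2 differed at 1 of 429 coding bases (99.8% identity), and Hbb-bt and Hbb-bs at 1 of 444 (99.8%). The estimated counts of Hba-a1 and Hba-a2 were not whole numbers in 45 of 46 libraries each, and those of Hbb-bt in all 46, so their reads were shared out between copies and the level of each copy is uncertain. The embryonic genes have no such copy among them: Hba-x was 62.0% identical to Hba-a1, Hbb-y 76.4% identical to Hbb-bh1 and 74.1% identical to Hbb-bt. Their counts were whole in every library. Hba-x, the embryonic alpha-type gene, was therefore used below as the reference for red cell RNA.

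The start regions of the embryonic beta-type gene and the adult alpha-type gene with the highest levels are shown because the balance of embryonic and adult globins is compared among libraries. They are the 150 bases up to the start given by RefSeq for GRCm38.p6, on the minus strand for Hbb-y (chr7:103853208-103853357) and on the plus strand for Hba-a2 (chr11:32296342-32296491). Capitals mark CCAAT, a box bound by NF-Y in many promoters.
Hbb-y: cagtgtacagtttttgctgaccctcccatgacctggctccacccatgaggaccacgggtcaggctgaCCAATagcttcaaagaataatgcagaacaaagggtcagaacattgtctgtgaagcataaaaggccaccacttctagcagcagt
Hba-a2: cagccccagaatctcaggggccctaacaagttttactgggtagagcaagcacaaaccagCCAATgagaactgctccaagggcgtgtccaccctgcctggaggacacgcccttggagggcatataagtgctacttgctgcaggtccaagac

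Both strands of these windows were searched for 3 motifs, none of which overlaps another: GATAA, which GATA factors bind, CCAAT, and CCACACCC, a box bound by KLF1. Of the 23 named genes whose windows were searched, 9 held GATAA, 11 held CCAAT and 1 held CCACACCC. Some of these genes, such as Epb41, have several windows, and a match in any of them was counted. Among 32851 single windows of the same length, 13.3% held GATAA, 24.5% held CCAAT and 2.2% held CCACACCC. The counts per gene and the shares per window are therefore not on the same footing. A match is a description of these letters and not a binding site.

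The libraries held 29909111 to 46150400 estimated counts. Sox9 was at 3.19 to 4.95 TPM (an abundance scaled for transcript length and library size) in XX WT and at 45.7 to 99.2 TPM in the libraries of the homozygous XX groups. Libraries XY WT replicate 3 and XX 3bp-del-hom replicate 4 stood apart in a list of 6 mesonephros genes, at a summed 136.8 and 74.3 TPM against at most 40.2 TPM in every other library. A list of 8 fetal liver and yolk sac genes summed to 4423 TPM in XY 3bp-del-hom replicate 1, 1885 TPM in XX 3bp-12bp-del-hom replicate 1 and 500 TPM in XX 1bp-ins-hom replicate 5, with a median of 30.1 TPM over all libraries. For XY WT replicate 3 and XX 1bp-ins-hom replicate 5, values without the library are given beside the results they move most, and the part of these libraries in the other results was not tested. Every XX mutant group was compared with the same 3 XX WT libraries and every XY mutant group with the same 3 XY WT libraries, so the comparisons within a sex are not independent.

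Globin RNA was abundant in every gonad. The highest level was that of Hbb-y, the main embryonic beta-type chain, with a mean of 9985 TPM over the 46 libraries (lowest 4579, median 9091, highest 20554). Hba-a2, an adult alpha-type gene, followed at 7035 TPM (3453, 6348 and 17654). The next levels, those of Hba-x at 2931 TPM (1272, 2710 and 6074) and Hba-a1 at 2864 TPM (1069, 2511 and 6335), did not differ beyond their spread. Hbb-bh1, the other embryonic beta-type gene, was at 1019 TPM (340, 968 and 2362), and Hbb-bt, an adult beta-type gene, was close to it at 981 TPM (393, 850 and 4157). The 6 globins together took 0.330 to 1.56% of all estimated counts.

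The genes that build the red cell around its hemoglobin were far lower on the same TPM scale. Urod and Fech, enzymes of heme synthesis that most cells use, had means of 80.4 and 51.1 TPM. Epb41, which encodes the skeletal protein 4.1R and is also made outside red cells, was at 57.8 TPM. Of the genes largely restricted to red cells, Alas2, the erythroid form of the first enzyme of heme synthesis, was at 37.7 TPM, Ahsp, a chaperone of free alpha chains, at 35.8 TPM, and Slc4a1, the band 3 anion exchanger, at 27.7 TPM. Tfrc, the transferrin receptor, and Cpox, an enzyme late in heme synthesis, were at 23.8 and 20.6 TPM. The remaining 14 genes, among them the regulators Klf1, Tal1 and Nfe2, the receptor Epor and the blood group genes Rhag, Rhd, Kel and Ermap, had means between 2.24 TPM for Epor and 8.31 TPM for Nfe2.

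The summed globin level varied within groups as well as between them. In XX WT it was 14884, 14872 and 29529 TPM, and in XY WT 23714, 20691 and 12526 TPM. Replicate 3 was thus far above its fellows in XX WT and below them in XY WT. By CPM (counts scaled to library size), the same XX WT library was the highest of its group in 27 of the 28 genes. XX 1bp-ins-het replicate 3 was so in 26 and XY 1bp-ins-het replicate 2 in 26. The highest sum of all, 50447 TPM, was in XY 1bp-ins-het replicate 2, and the lowest, 11671 TPM, in XY 3bp-12bp-del-hom replicate 1.

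**Figure D1:**
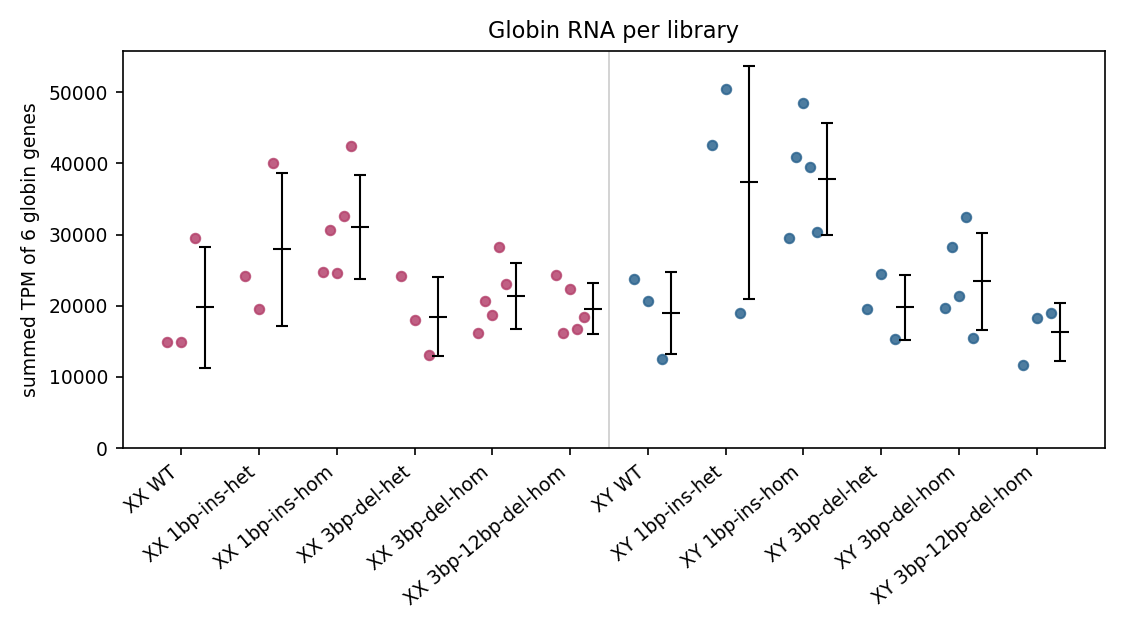
Summed TPM of the 6 globin genes in each library (points) by group, XX in red and XY in blue, with the group mean and SD in black. The 5 XY 1bp-ins-hom libraries, at 29571 to 48430 TPM, all lie above the XY WT libraries, at 12526 to 23714 TPM, and every other mutant group overlaps the WT group of its sex.

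Between the wild types the globin level, taken as the log2 of the summed globin CPM (counts scaled to library size) per library, differed by 0.091 (XY minus XX), against a pooled SD of 0.62. No globin gene was called there, and the edgeR log2 fold changes of the 6 ran from -0.06 for Hbb-bt to 0.15 for Hba-a1.

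Among XY embryos, globin RNA was highest in the 1bp-ins groups. Hbb-y was at 12281, 16708, 20281, 16393 and 12409 TPM in the 5 XY 1bp-ins-hom libraries and at 9794, 8319 and 5082 TPM in XY WT. Hba-x was at 3820, 5804, 5209, 4587 and 3250 TPM against 3028, 2741 and 1425 TPM. Hba-a1 was at 3898, 5063, 5423, 4977 and 3788 TPM against 2612, 2390 and 1409 TPM. In all 3 genes every homozygous library lay above every wild-type library. How many of all genes were separated in this way was not counted. Hbb-bh1 overlapped, at 953, 1765, 1766, 1658 and 1003 TPM against 985, 1015 and 532 TPM. The globin level was 1.22 higher (log2, pooled SD 0.43), the only one of 15 pairwise differences in which the groups did not overlap, and it was 0.846 higher without XY WT replicate 3.

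By edgeR none of the 28 genes passed an adjusted p under 0.05 in XY 1bp-ins-hom against XY WT, where 0% of all 15693 genes tested were called. The log2 fold changes were 1.27 ± 0.25 (SE) for Hba-a1, 1.19 ± 0.25 for Hbb-bt, 1.17 ± 0.27 for Hbb-y, 1.14 ± 0.25 for Hba-a2, 1.07 ± 0.30 for Hba-x and 0.92 ± 0.32 for Hbb-bh1, each with an adjusted p of 0.341. Outside the globins, Ahsp had 0.92 ± 0.15, Alas2 0.88 ± 0.21 and Epb42, which encodes protein 4.2 of the membrane skeleton, 0.69 ± 0.18. An unadjusted p under 0.05 was reached by 13 of the 28 genes and by 2232 of all genes. The median log2 fold change was 0.338 over the 28 genes and -0.002 over all genes. DESeq2 called 8 of the 28 (Ahsp, Hba-a1, Hbb-bt, Hba-a2, Hbb-y, Alas2, Hba-x and Epb42), where it called 0.767% of all genes. A fit over all 12 groups called 3 (Hba-a1, Hbb-y and Hba-a2), where it called 4.71% of all genes.

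The other XY mutants gave no call for any of the 28 genes against XY WT, and 0% of all genes were called in XY 1bp-ins-het, XY 3bp-del-het and XY 3bp-del-hom and 0.0130% in XY 3bp-12bp-del-hom. Hbb-y was at 17148, 20554 and 7447 TPM in XY 1bp-ins-het, so 1 of its 3 libraries lay within the wild-type range. The globin level there was 0.924 higher than in XY WT with a pooled SD of 0.763. It differed by 0.148 in XY 3bp-del-het, 0.43 in XY 3bp-del-hom and -0.22 in XY 3bp-12bp-del-hom, with pooled SDs of 0.568, 0.535 and 0.555. Without XY WT replicate 3 the 4 differences were 0.549, -0.226, 0.056 and -0.594. At an unadjusted p under 0.05 the 4 groups had 4, 0, 1 and 1 of the 28 genes in that order, and 943, 740, 1722 and 1052 of all genes.

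Among XX embryos the 1bp-ins homozygotes again had the highest globin level, here with overlap. Hba-a1 was at 2743, 4023, 3157, 3712 and 6335 TPM in XX 1bp-ins-hom against 1573, 1571 and 3169 TPM in XX WT. Hbb-y was at 10217, 12603, 9786, 13490 and 11947 TPM against 6148, 6181 and 11918 TPM. In both genes XX WT replicate 3 lay inside the range of the mutants. By edgeR Hba-a1 rose by 1.18 ± 0.36 (log2 ± SE, adjusted p = 0.0398) and Hbb-y by 0.77 ± 0.25 (adjusted p = 0.0478), in a comparison where 32.3% of all genes were called. The uncalled globins had 1.42 ± 0.60 for Hbb-bt, 1.09 ± 0.42 for Hba-a2, 0.56 ± 0.29 for Hba-x and 0.20 ± 0.43 for Hbb-bh1. Without replicate 5 of the mutants, the values were 0.95 for Hba-a1, 0.76 for Hbb-y, 0.81 for Hbb-bt, 0.77 for Hba-a2, 0.67 for Hba-x and 0.41 for Hbb-bh1, of which that of Hba-a1 alone was called (adjusted p = 0.0485), and 35.2% of all genes were called. The call of Hba-a1 was lost without mutant replicate 2, 3 or 4 or XX WT replicate 1 or 2, and that of Hbb-y held only in the fit without XX WT replicate 3.

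The globin level of the remaining XX mutants differed from XX WT by less than or little more than the pooled SD. The difference was 0.595 in XX 1bp-ins-het (SD 0.579), 0.132 in XX 3bp-del-het (0.554), 0.476 in XX 3bp-del-hom (0.411) and 0.169 in XX 3bp-12bp-del-hom (0.389). Without XX WT replicate 3, the high library of its group, the differences were 0.933, 0.47, 0.814 and 0.507. No globin was called in any of these, and the fold changes of the 6 ranged from -0.06 for Hbb-bt in XX 3bp-del-het to 0.62 for Hba-a1 in XX 1bp-ins-het and in XX 3bp-del-hom. Homozygotes and heterozygotes of the same allele overlapped in globin level in both sexes, with differences of 0.282 to 0.344 and pooled SDs of 0.381 to 0.538. In the interaction tests, which ask whether a mutation acted differently in XY and XX embryos, no globin and none of the 28 genes was called in any of 5 genotypes. The share of all genes called was 0% for 1bp-ins-het, 1.04% for 1bp-ins-hom, 0% for 3bp-del-het, 3.83% for 3bp-del-hom and 0.597% for 3bp-12bp-del-hom, and 2, 1, 2, 3 and 2 of the 28 genes had an unadjusted p under 0.05 in that order. Without XY WT replicate 3, Cpox and Epb41 were called in the 3bp-del-hom interaction and Cpox and Tfrc in that of 3bp-12bp-del-hom, where 22.9% and 17.9% of all genes were called.

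The summed embryonic globins of the set exceeded its summed adult globins in all libraries but 1. The ratio of summed Hba-x, Hbb-y and Hbb-bh1 to summed Hba-a1, Hba-a2 and Hbb-bt was 1.32 ± 0.18 in TPM (SD, n = 46). On the log2 scale it ran from 0.09 to 0.73 in 45 libraries and was -0.98 in XX 1bp-ins-hom replicate 5. With Hbb-b1, an adult beta-type gene named after its values were seen, counted as adult, 2 libraries lay below 0, that one at -1.35 and XY 3bp-del-het replicate 3 at -0.04, and the highest was 0.69. The groups overlapped in all 15 pairwise comparisons. Differences between group means ran from -0.388 in XX 1bp-ins-hom against XX WT, which was -0.123 without replicate 5, to 0.121 in XY 1bp-ins-hom against XY 1bp-ins-het.

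**Figure D2:**
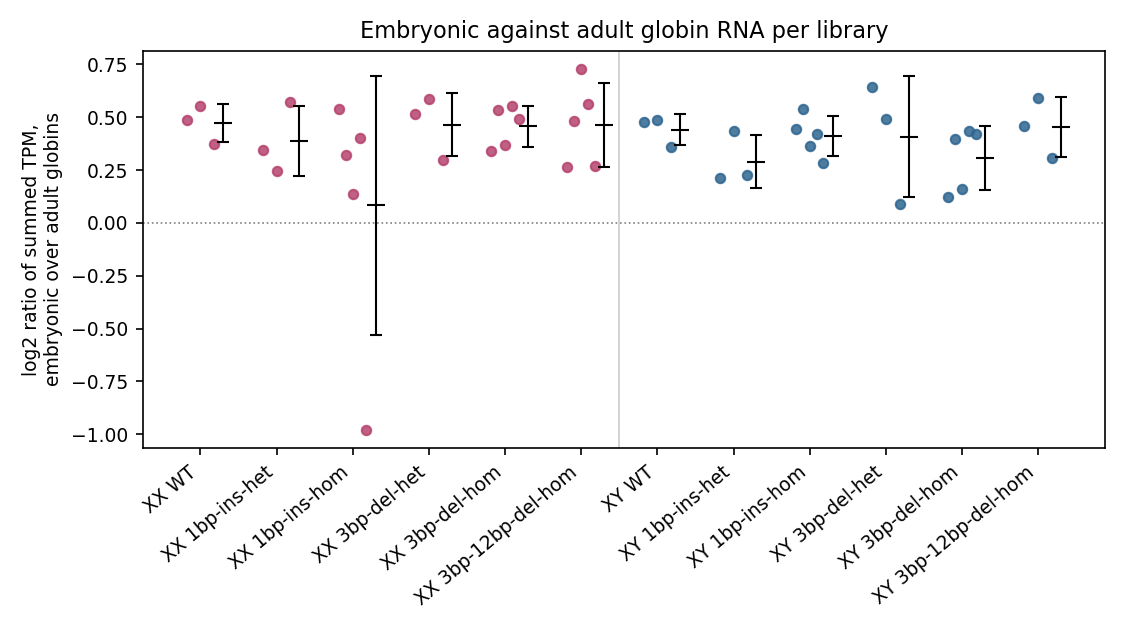
Log2 ratio of embryonic (Hba-x, Hbb-y, Hbb-bh1) to adult (Hba-a1, Hba-a2, Hbb-bt) globin TPM in each library (points) by group, with group mean and SD in black and a dotted line at equal sums. One library, XX 1bp-ins-hom replicate 5, lies at -0.98, and the other 45 lie between 0.09 and 0.73.

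Replicate 5 of XX 1bp-ins-hom differed from its 4 fellows in the make-up of its globin RNA more than in its amount. Hbb-bt was at 4157 TPM against a mean of 1136 ± 142 TPM in the fellows (3.66 times), and Hba-a2 was 2.25 times and Hba-a1 1.86 times the fellows' mean. Hbb-bh1 was at 340 TPM against 1026 ± 262 TPM (0.331 times), Hba-x was 0.615 times and Hbb-y 1.04 times the fellows' mean. This library thus had the highest adult globin levels of all 46 and the lowest Hbb-bh1. Hbb-b1 was at 8112 TPM against 638 ± 234 TPM (12.7 times), and its counts were not whole in any library. Ahsp was 3.19 times, Epor, the erythropoietin receptor, 2.27 times, Ank1, the ankyrin that ties band 3 to spectrin, 2.15 times, Alas2 1.94 times and Klf1, the activator of adult beta globin, 1.78 times the fellows' mean.

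By CPM, that library was the highest of all 46 in 11 of the 28 genes, and so was XY 1bp-ins-het replicate 2, in 11 others. In the latter the genes were Hbb-y, Hbb-bh1, Alas2, Slc4a1, Epb42, Rhag, Rhd, Kel, Ermap, Tal1 and Trim10, with a log2 embryonic to adult ratio inside the range of the rest. Some ranks differ in TPM, where Slc4a1 was at 55.97 in XX WT replicate 3 against 55.1 in XY 1bp-ins-het replicate 2. Alpha-type over beta-type TPM, with Hbb-b1 counted, was 1.01 ± 0.039 over all 46 libraries and 1.06 in XX 1bp-ins-hom replicate 5. The 8 fetal liver and yolk sac genes summed to 500 TPM in that replicate, of which Afp, alpha-fetoprotein, made 191 TPM and Alb, albumin, 6.81 TPM. The libraries with higher sums, XX 3bp-12bp-del-hom replicate 1 at 1885 TPM and XY 3bp-del-hom replicate 1 at 4423 TPM, had log2 globin ratios of 0.26 and 0.12. The part of fetal liver RNA in the globin make-up was not tested.

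Between the embryonic beta-type genes the balance also shifted from library to library. Hbb-y over Hbb-bh1 had a median of 9.86 and ran from 5.12 in XX 3bp-12bp-del-hom replicate 3 to 35.2 in XX 1bp-ins-hom replicate 5. Hba-a2 over Hba-a1 varied less, from 1.94 to 3.23, and rests on how reads of near-identical copies were shared out.

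Most of the erythroid genes varied together with Hba-x from library to library. Pearson's r of log2 CPM with Hba-x over the 46 libraries was positive with a Benjamini-Hochberg adjusted permutation p under 0.05 for 23 of the 27 other genes. With deviations from the group means it was so for 23 of 27 also, and the median r was 0.586 and 0.625. With log2(TPM + 1) over the 46 libraries, 17 of 27 were called and the median r was 0.358. Genes outside the set were not tested in this way, so the share of all genes that this test would call is not known. Of 17005 such genes, 434 had an r over 0.5 within groups, which is another criterion than the call. Their median r within groups was -0.025, against 0.625 for the 27. The embryonic globins were closest: within groups r was 0.958 for Hbb-bh1 (rho 0.961) and 0.919 for Hbb-y (rho 0.907), with a permutation p of 1e-05 for each r and rho, the smallest that 100000 resamples can give, and an adjusted p of 3e-05. Without the 2 libraries farthest from the median of Hba-x these values were 0.952 and 0.914.

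The next values within groups were those of 3 of the 4 blood group genes. Rhd had an r of 0.841, Rhag, the ammonium channel of the Rh complex, 0.817 and Kel, an endopeptidase, 0.803. Alas2 had 0.776, Hba-a1 0.771 and Slc4a1 0.758. Hba-a2 had 0.691 and Hbb-bt 0.618, and without XX 1bp-ins-hom replicate 5 the value of Hbb-bt was 0.869. Ahsp likewise had 0.567 with that library and 0.836 without it. Spearman's rho of these 9 genes within groups lay between 0.688 and 0.837, and r without the 2 farthest libraries between 0.517 and 0.815, with adjusted permutation p-values of r from 3e-05 to 0.000759.

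Within groups 4 genes gave no call with Hba-x. Their r was 0.264 for Sptb, erythroid beta spectrin (permutation p = 0.207), 0.102 for Cpox (p = 0.544), 0.033 for Epb41 (p = 0.868) and -0.038 for Tfrc (p = 0.824), with rho of 0.324, 0.244, 0.111 and -0.035. Over all 46 libraries they had 0.063, 0.321, -0.12 and -0.282, and there Cpox was called (adjusted permutation p = 0.0337). Tspan33, a tetraspanin of red cell progenitors, had 0.715 within groups but 0.235 over all libraries, where it was not called, and it is the gene of the set that differed most between the sexes. These are correlations across libraries that share the dissection and the library preparation, and adjusted values are over the 27 relations of each kind. By transcript length, Hba-x lies at the 6.4th percentile. Cpox lies at the 64.2nd, Epb41 at the 80.8th, Tfrc at the 83.4th and Sptb at the 98.1st. Other long genes, such as Slc4a1 at the 84.4th and Ank1 at the 90.9th, were called within groups. The part of length in these correlations was not tested.

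**Figure D3:**
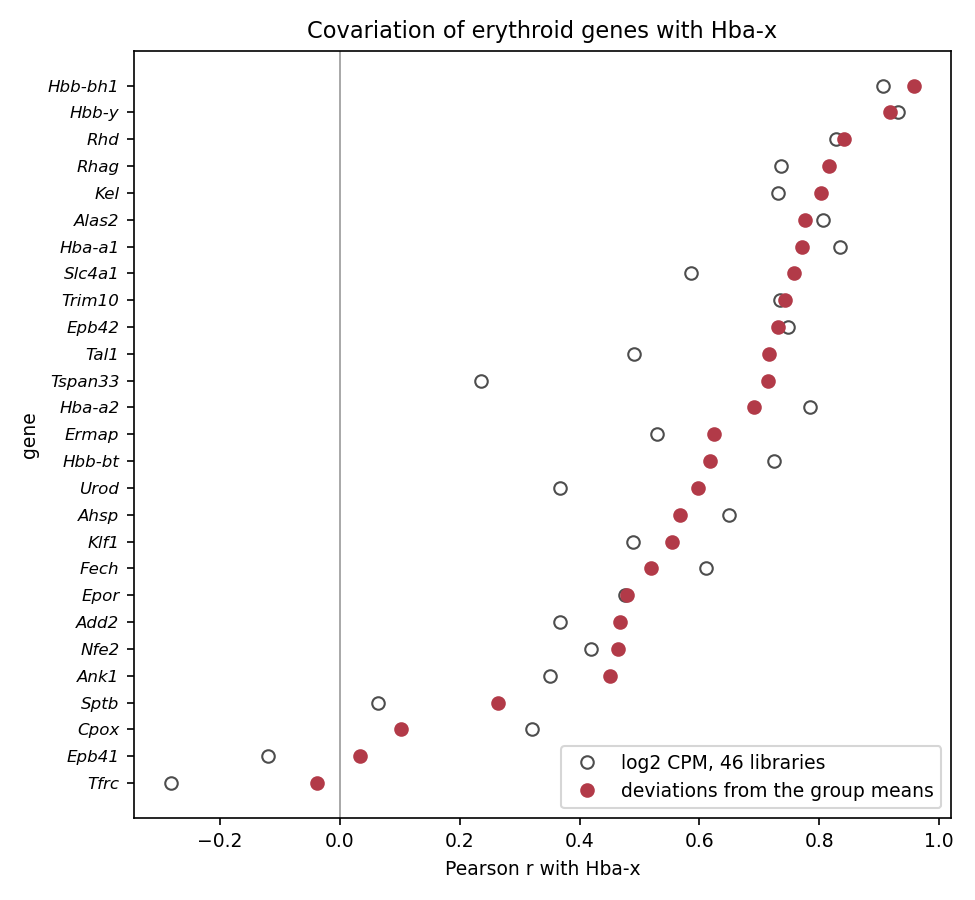
Pearson r of each erythroid gene with Hba-x over 46 libraries, from log2 CPM (open circles) and from deviations from the group means (filled circles). Hbb-bh1 and Hbb-y lie at the top, with 0.958 and 0.919 within groups, and Sptb, Cpox, Epb41 and Tfrc lie between -0.038 and 0.264.

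Of the 17005 genes outside the set, the 10 that varied most like Hba-x within groups were Car2 (r = 0.904), Slc25a37 (0.846), Hsd3b6 (0.829), Gm2061 (0.765), Gpx1 (0.758), Ccdc92b (0.746), Ube2l6 (0.736), Csf2rb (0.735), Acp5 (0.724) and Prr13 (0.715). Car2 encodes a carbonic anhydrase and Slc25a37 the mitochondrial iron importer mitoferrin. The median r was 0.513 over 18 other red cell genes, 0.505 over 11 further membrane genes and 0.468 over 10 megakaryocyte and platelet genes, with -0.025 over all genes. It was 0.271 over 14 heme and iron genes, 0.181 over 12 macrophage and other leukocyte genes and -0.163 over 12 endothelial genes. The 8 fetal liver and yolk sac genes had -0.276, and the 12 erythroid transcription factors -0.047, with 0.561 for Gata1, the master regulator of red cells.

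Beyond the globins, the calls in XX mutants fell on heme, skeletal and regulator genes. In XX 1bp-ins-hom 4 of the 28 genes rose and 2 fell, where 32.3% of all genes were called (17.2% higher and 15.1% lower). In XX 3bp-del-het 4 fell, where 10.9% of all genes were called (4.78% higher and 6.15% lower). In XX 3bp-del-hom 2 rose and 5 fell, against 44.8% of all genes (21.6% higher and 23.1% lower), and in XX 3bp-12bp-del-hom 2 rose and 1 fell, against 25.6% (14.6% higher and 11.0% lower). The share of the 28 genes called was thus below that of all genes in the homozygotes and little above it in XX 3bp-del-het. The median log2 fold change over the 28 was 0.192, -0.135, -0.165 and -0.028 in that order, and 0.004, -0.003, -0.026 and 0.002 over all genes.

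Cpox rose in all 3 homozygous XX groups against XX WT: by 0.60 ± 0.20 in XX 1bp-ins-hom (adjusted p = 0.0491; 0.45 without replicate 5), 0.33 ± 0.08 in XX 3bp-del-hom (adjusted p = 0.0084) and 0.37 ± 0.07 in XX 3bp-12bp-del-hom (adjusted p = 0.0045). Its levels were 17.1, 17.4 and 18.1 TPM in XX WT and 21.8, 20.7, 23.1, 20.2 and 20.2 TPM in XX 3bp-12bp-del-hom, with no overlap. In XX 3bp-del-hom they were 16.1, 20.8, 18.8, 21.6 and 20.1 TPM, with 1 library below the wild type. In XX 1bp-ins-hom they were 19.5, 18.9, 25.9, 17.8 and 32.2 TPM, with 1 library inside the wild-type range. In XY WT, Cpox was at 21.9, 20.9 and 21.8 TPM, above every XX WT library, with a log2 difference of 0.40 ± 0.11 that missed the threshold by edgeR (adjusted p = 0.0597). In XX 3bp-del-hom and XX 3bp-12bp-del-hom the call of Cpox held in all 8 fits that left out 1 library and all 7 other alternatives.

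Klf1 also rose in the 3 homozygous XX groups, by 1.06 ± 0.35 (adjusted p = 0.0466), 0.81 ± 0.27 (adjusted p = 0.030) and 0.89 ± 0.24 (adjusted p = 0.0212) in the same order. Its levels were 2.74, 2.16 and 4.13 TPM in XX WT and 4.49, 4.53, 6.60, 5.11 and 5.30 TPM in XX 3bp-12bp-del-hom. The other homozygotes overlapped XX WT. They were at 5.22, 3.48, 6.59, 3.21 and 8.23 TPM in XX 1bp-ins-hom and at 2.99, 3.81, 4.68, 5.14 and 5.78 TPM in XX 3bp-del-hom. The call was lost without XX WT replicate 1 or replicate 2 in each of the 3 comparisons. It was also lost without mutant replicate 1, 3 or 5 in XX 1bp-ins-hom, where the value without replicate 5 was 0.85 ± 0.30, and without mutant replicate 3 or 5 in XX 3bp-del-hom. Against the heterozygotes of the same allele, Klf1 rose by 0.85 ± 0.22 in XX 3bp-del-hom (adjusted p = 0.017), the only one of the 28 genes called there, where 27.1% of all genes were called (14.0% higher and 13.1% lower). That call was lost without heterozygote replicate 2 or 3.

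Of the 7 membrane genes of the set, Epb41, Sptb, Add2 and Ank1 were those that fell in 1 or more XX mutant groups, and none rose. Of 11 further membrane genes, 2 rose and 0 fell in XX 1bp-ins-hom (Icam4 by 0.81 and Aqp1 by 0.61), 1 fell in XX 3bp-del-het, 1 rose and 1 fell in XX 3bp-del-hom (Icam4 by 0.70 and Tmod1 by 0.80), and 1 fell in XX 3bp-12bp-del-hom. Epb41 was at 65.7, 74.4 and 79.0 TPM in XX WT, at 59.6, 49.7, 56.8, 53.1 and 53.2 TPM in XX 1bp-ins-hom and at 53.3, 48.8 and 55.1 TPM in XX 3bp-del-het, with no overlap in either case. By edgeR it fell by 0.28 ± 0.07 (log2 ± SE, adjusted p = 0.0142) and 0.34 ± 0.07 (adjusted p = 0.0227), and in XX 3bp-del-hom by 0.39 ± 0.09 (adjusted p = 0.0052). Sptb fell by 0.53 ± 0.17 (adjusted p = 0.0393) in XX 1bp-ins-hom, 0.66 ± 0.16 (adjusted p = 0.044) in XX 3bp-del-het and 0.70 ± 0.21 (adjusted p = 0.0266) in XX 3bp-del-hom. It was at 7.42, 7.09 and 9.81 TPM in XX WT and at 4.63, 5.04 and 3.87 TPM in XX 3bp-del-het.

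Add2, beta-adducin of the spectrin junctions, fell by 0.84 ± 0.18 (adjusted p = 0.0237) in XX 3bp-del-het, 0.61 ± 0.22 (adjusted p = 0.0473) in XX 3bp-del-hom and 0.42 ± 0.14 (adjusted p = 0.0487) in XX 3bp-12bp-del-hom. Ank1 fell by 1.00 ± 0.25 (adjusted p = 0.0438) in XX 3bp-del-het and 0.70 ± 0.25 (adjusted p = 0.0462) in XX 3bp-del-hom, and Tfrc by 0.33 ± 0.09 (adjusted p = 0.0107) in the latter. Slc4a1, the anion exchanger to which this skeleton is fixed, had uncalled values of -0.73 ± 0.38 and -0.91 ± 0.35 in those groups, and Epb42 -0.45 ± 0.35 and -0.36 ± 0.24. In XX 1bp-ins-het none of the 28 genes was called, where 0% of all genes were, and only Tfrc had an unadjusted p under 0.05, with -0.29 ± 0.07, against 1251 of all genes.

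Many of these calls rest on single libraries. In XX 3bp-del-het, those of Sptb and Ank1 were lost without any 1 of the 6 libraries, that of Epb41 without heterozygote replicate 1 or 2 or XX WT replicate 2 or 3, and that of Add2 without heterozygote replicate 1 or 3 or XX WT replicate 2 or 3. In XX 3bp-del-hom, the call of Epb41 held in all 8 fits without 1 library, that of Tfrc was lost without XX WT replicate 2, and that of Sptb without mutant replicate 3 or 5 or XX WT replicate 3. Those of Add2 and Ank1 held there only in the fit without mutant replicate 4, the library with the mesonephros signal. In XX 3bp-12bp-del-hom, that of Add2 held only without mutant replicate 1. In XX 1bp-ins-hom, that of Epb41 was lost without XX WT replicate 2 or 3, that of Sptb without mutant replicate 1, 3 or 4 or any XX WT library, and that of Cpox without mutant replicate 2 or 3 or any XX WT library.

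Transcript length moved with these calls. Over all genes the log2 fold change correlated with relative transcript length with a Spearman rho of -0.387 in XX 1bp-ins-hom, -0.447 in XX 3bp-del-het, -0.475 in XX 3bp-del-hom, -0.218 in XX 3bp-12bp-del-hom and -0.512 in XY 1bp-ins-hom against the WT of the same sex. The skeletal genes are long, with Sptb at the 98.1st, Ank1 at the 90.9th, Epb41 at the 80.8th and Add2 at the 79.7th percentile of length, and the globins lie at the 2.2nd to the 6.4th. After the trend with length was removed from each library, none of the 28 genes was called in XX 1bp-ins-hom or XX 3bp-del-het, where 21.5% and 2.77% of all genes still were. Cpox and Urod were called in XX 3bp-del-hom, with 0.42 and -0.28, and Cpox and Klf1 in XX 3bp-12bp-del-hom, with 0.39 and 0.85, against 35.3% and 25.2% of all genes. In XY 1bp-ins-hom, Hba-a1 kept a log2 fold change of 1.07 and Hbb-y of 0.95, still uncalled. Whether length or genotype sets the values of the skeletal genes cannot be told apart in these groups.

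**Figure D4:**
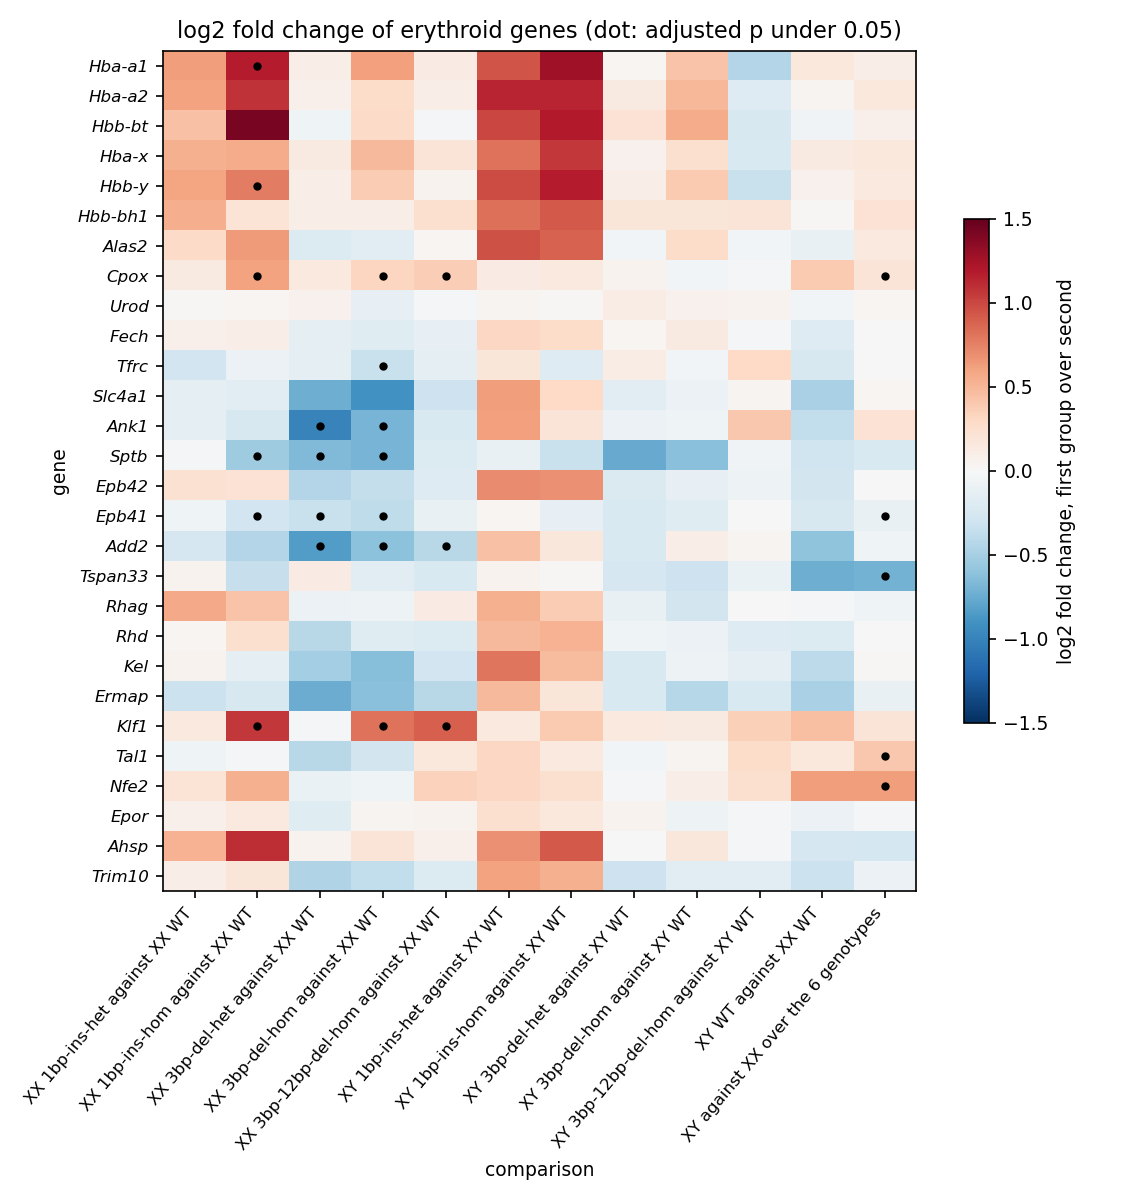
Log2 fold change (edgeR, colour) of the 28 erythroid genes (rows) in 12 comparisons (columns), with a dot where the adjusted p was under 0.05. Hba-a1 is at 1.27 in XY 1bp-ins-hom and at 1.175 in XX 1bp-ins-hom. The dots in XX mutants fall on Cpox, Klf1, Tfrc, the skeletal genes Ank1, Sptb, Epb41 and Add2 and, in XX 1bp-ins-hom, Hba-a1 and Hbb-y.

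Homozygotes and heterozygotes differed in few of the genes. Against XX 1bp-ins-het, Epb41 fell by 0.24 ± 0.06 in XX 1bp-ins-hom (adjusted p = 0.0352), where 17.3% of all genes were called (8.49% higher and 8.76% lower). The call was lost without any 1 heterozygote or mutant replicate 2 or 3. Against XY 1bp-ins-het, Tfrc fell by 0.37 ± 0.11 in XY 1bp-ins-hom (adjusted p = 0.0495), where 12.6% were called (4.96% higher and 7.60% lower). It was lost without heterozygote replicate 2 or 3 or mutant replicate 1, 2, 3 or 4. In XY 3bp-del-hom against XY 3bp-del-het no gene was called (0%), and none of the 28 had an unadjusted p under 0.05, against 2981 of all genes.

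The sexes differed in 5 of the 28 genes when the difference was averaged over the 6 genotypes, in a fit where 58.7% of all genes were called (29.8% higher and 28.9% lower), a larger share than among the 28. Tspan33 was lower in XY gonads by 0.71 ± 0.09 on the log2 scale (adjusted p = 2.97e-09). It was at 5.04 TPM at the lowest, 6.52 at the median and 10.7 at the highest in 24 XX libraries and at 2.92, 4.35 and 5.80 TPM in 22 XY libraries, with some overlap. Nfe2, a subunit of the factor that drives globin and platelet genes, was 0.63 ± 0.09 higher in XY (adjusted p = 3.12e-07), at 3.25, 6.18 and 12.3 TPM in XX against 7.33, 9.87 and 13.3 TPM in XY. Tal1, a factor of blood stem cells, red cells and blood vessels, was 0.41 ± 0.08 higher in XY (adjusted p = 2.52e-05), at 3.62, 5.54 and 8.17 against 5.01, 7.09 and 10.2 TPM.

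The other 2 differences between the sexes were small. Cpox was 0.19 ± 0.05 higher in XY (adjusted p = 0.0022), at 15.8, 19.2 and 32.2 TPM in XX and 16.1, 21.4 and 25.1 TPM in XY. Epb41 was lower by 0.11 ± 0.04 in XY (adjusted p = 0.0082), at 47.6, 58.8 and 79.0 TPM against 39.5, 53.4 and 82.5 TPM. All 5 calls held in each of the 46 fits without 1 library and in 6 alternatives. No globin was called, with log2 differences of 0.07 to 0.22, nor was Alas2 at 0.14 ± 0.13 or Ahsp at -0.27 ± 0.14.

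**Figure D5:**
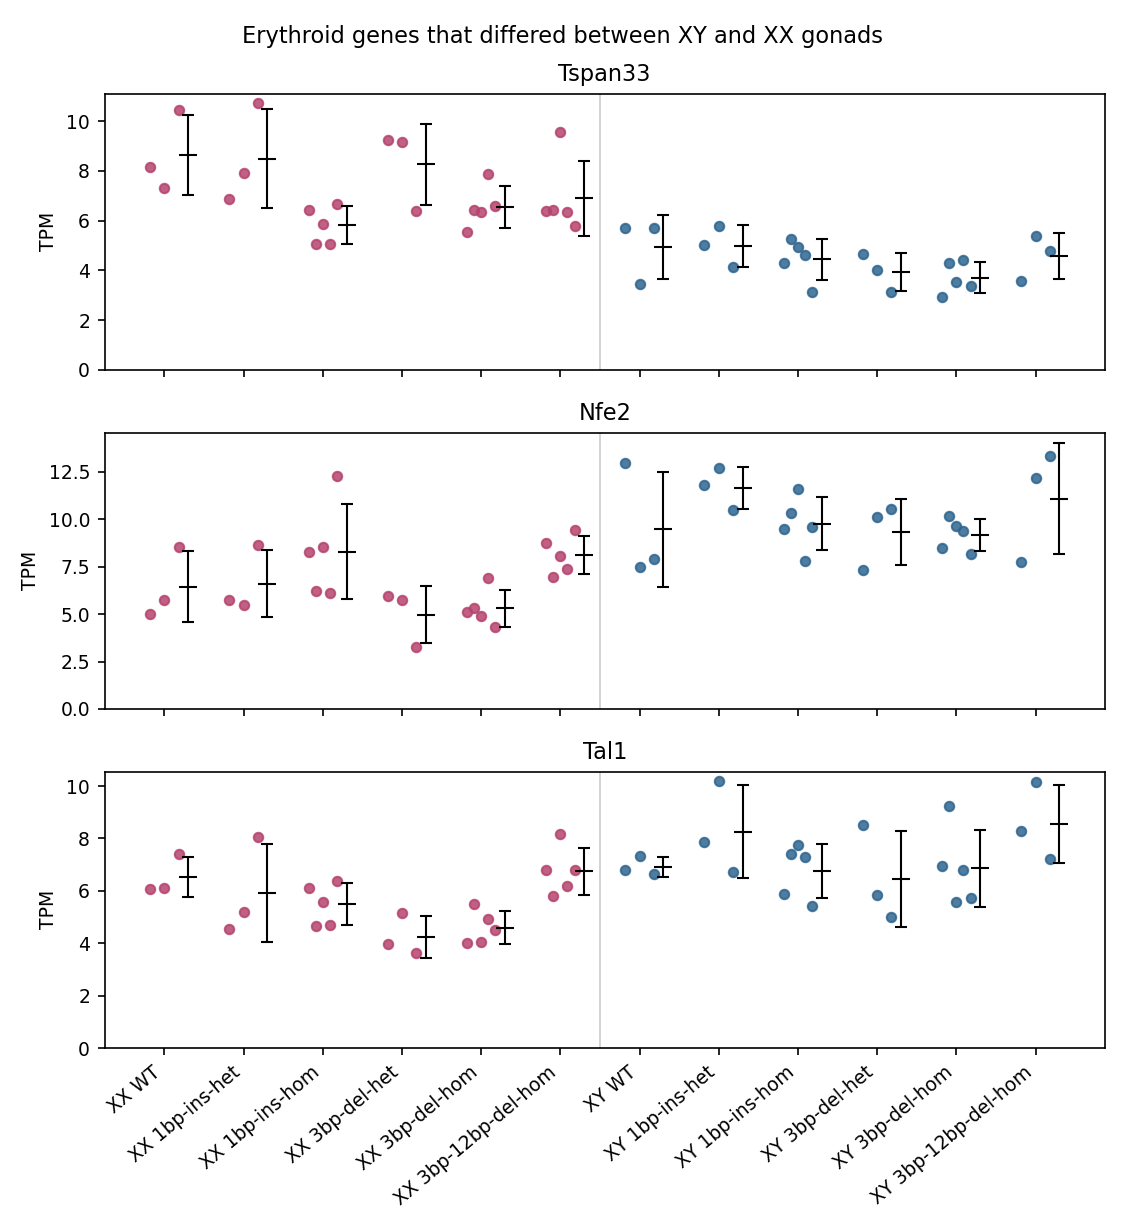
TPM of Tspan33, Nfe2 and Tal1 in each library (points) by group, XX in red and XY in blue, with group mean and SD in black. Tspan33 runs from 5.04 to 10.7 TPM in XX and from 2.92 to 5.80 TPM in XY, and Nfe2 and Tal1 lie higher in XY with overlap.

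Within single genotypes, Tspan33, Nfe2 and Tal1 each kept their direction in all 6. In 1 fit over all groups, Tspan33 had log2 differences of -0.70 in WT, -0.70 in 1bp-ins-het, -0.33 in 1bp-ins-hom, -1.08 in 3bp-del-het, -0.87 in 3bp-del-hom and -0.57 in 3bp-12bp-del-hom, and was called in 4 of these 6 genotypes. Nfe2 had 0.65, 0.75, 0.35, 0.71, 0.78 and 0.53 in the same order and was called in the same 4. Tal1 had 0.188, 0.558, 0.357, 0.548, 0.488 and 0.306 and was called in 1bp-ins-het, 3bp-del-het and 3bp-del-hom. Of the 28 genes, 4, 4, 0, 3, 3 and 0 were called in that order, where 29.6%, 33.8%, 14.4%, 33.0%, 33.3% and 10.8% of all genes were. In the fit on the wild types alone, none of the 28 was called (11.0% of all genes, 5.10% higher and 5.94% lower), with 4 at an unadjusted p under 0.05 against 4179 of all genes. Without XY WT replicate 3, which had the mesonephros signal, that fit called 7 of the 28 (Cpox, Nfe2, Epb41, Sptb, Add2, Tfrc and Tspan33) and 43.3% of all genes.

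The lists of other cell types are read against the 58.7% of all genes called between the sexes. All 12 macrophage and other leukocyte genes fell in XY against XX over the 6 genotypes, among them Lyz2 by 1.12, C1qa by 0.48 and Cd68 by 0.52 on the log2 scale, and the summed level of the list ran from 47.4 to 457 TPM in XX and from 32.9 to 178 TPM in XY. Of 6 mesonephros genes 4 fell, with Ret by 1.78 and Pax8 by 1.24, and 1 rose, and their sum ran from 9.39 to 74.3 TPM in XX and from 5.29 to 136.8 TPM in XY. Of 10 megakaryocyte and platelet genes 3 fell, with Itgb3 by 0.34. Of 12 erythroid transcription factors 1 rose, Sox6 by 0.84, and 5 fell, among them Gata1 by 0.88 and Myb by 0.62. Of 18 other red cell genes 4 rose, with Tent5c by 2.01, and 1 fell. Of 14 heme and iron genes 5 rose and 4 fell, with 0.69 for Abcb10 and -0.29 for Alad. The counts of genes that rose and fell were 3 and 3 of 11 further membrane genes, 2 and 1 of 12 endothelial genes, 3 and 1 of 8 erythropoietin and hypoxia genes, 1 and 0 of 8 fetal liver and yolk sac genes, and 5 and 3 of 8 gonad identity genes. Sox6 and several genes of these lists are also made by other cells, and the part of those cells in the sex differences of Tspan33, Nfe2 and Tal1 was not tested.

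In XX 1bp-ins-hom and XX 3bp-del-hom against XX WT, several vessel and platelet genes fell and ferritin genes rose. Of 12 endothelial genes 6 fell in XX 1bp-ins-hom, 8 in XX 3bp-del-hom and 0 in XX 3bp-12bp-del-hom. In the last group 3 had an unadjusted p under 0.05 and the median was -0.110. Of all genes tested, 15.1%, 23.1% and 11.0% fell in these groups in that order, and 17.2%, 21.6% and 14.6% rose. Over all genes the Spearman rho of fold change with transcript length was -0.387, -0.475 and -0.218. The part of length in these lists was not tested. Kdr fell by 0.51 and 0.63 in the first 2 groups, and Tie1 by 0.48 and 0.58. Of 10 megakaryocyte and platelet genes 3, 3 and 0 fell, the last with 4 at an unadjusted p under 0.05, and of 12 macrophage and other leukocyte genes 2, 4 and 5. Of 14 heme and iron genes 5, 6 and 5 rose. They included the ferritin chains Fth1, by 0.48 and 0.53, and Ftl1, by 0.29 and 0.43, in XX 1bp-ins-hom and XX 3bp-del-hom, while Slc11a2, an iron importer, fell by 0.54 and 0.59. In XY 1bp-ins-hom against XY 1bp-ins-het, 5 of 10 megakaryocyte and platelet genes rose, with Pf4 by 0.93 and Ppbp by 0.99. Of all genes, 4.96% rose there.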

How the data were processed

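The RNeasy Plus micro kit gave the RNA, of which 140 ng per sample was made into poly(A) libraries with NEB kits, per the labels' protocols. The submitters' processing notes name mm10 as the build. Names of the aligner and quantifier, the annotation and the strand setting were not given in the sources used here. Deposited by the authors were estimated counts per gene symbol, of which 8.0 to 8.9% per library were not whole and all were rounded here, and TPM, scaled by the authors for length, whose columns sum to 923510 to 945851. Hbb-b1 is left out of the adult globin sum unless named. Each table has 1 column without a matching sample, which was not used. Over 71 pairs of libraries within groups, chi-square per degree of freedom was 12.56 or more, so none was taken as a double.

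The quasi-likelihood test of edgeR 4.0.16 (robust, TMM, filterByExpr; R 4.3.3) was run on the groups of each comparison. A gene was called where its p, adjusted over all genes by Benjamini-Hochberg, was under 0.05. The sex difference over 6 genotypes used 1 fit of all 12 groups, where 17033 genes passed the filter. Log2 CPM has a prior count of 2. Levels of different genes are compared in TPM only. The globin level and ratio are described without a test. Correlations used permutation tests of 100000 resamples, drawn with numpy 2.4.6, within groups for the deviations. Relative transcript length came from the ratio of counts to TPM. The fits were tested on simulated data. Counting error and depth (29909111 to 46150400 counts) limit low genes most.

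The genes and the 11 lists were chosen with earlier results of these data known. Named genes follow a rule: called ones (at most 8 per comparison, by p) and at most 4 uncalled ones of high level, all globins, at most 3 called genes per list, and the 10 genes most like Hba-x. Values of 2 list genes that the rule would name are not reported here. Some uncalled values are given beyond this rule, chosen after they were seen. Alternatives were DESeq2 1.42.0, RLE normalization, no filter, a replicate block, 1 fit of the 12 groups, library sizes without the 28 genes, and leaving out each library. The length trend, the counting of Hbb-b1, the sex difference within genotypes and the correlations without 1 library were chosen after seeing the data.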

Additional observations from a re-analysis of the deposited data

Results flagged for a closer look

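In groups of 5 libraries, 12 of 155 sets of values held 1 library farther from its 4 fellows than Dixon's critical value of 0.71 allows, where chance gives about 1 in 20 sets. All values are log2 CPM unless said otherwise. XX 1bp-ins-hom replicate 5 was the highest of its group in Hbb-bt at 10.6 (fellows 8.36 to 8.90), in Fech at 6.35 (5.97 to 6.01), in Ank1 at 4.17 (2.83 to 3.14) and in Rhag at 2.61 (2.06 to 2.20), and the lowest in the log2 ratio of embryonic to adult globin TPM at -0.98 (0.14 to 0.54). XX 3bp-12bp-del-hom replicate 3 was the highest in Hba-x at 10.51 (9.76 to 9.93), in Cpox at 5.52 (5.27 to 5.33), in Sptb at 5.58 (4.96 to 5.09) and in Tspan33 at 3.57 (2.79 to 2.99). XX 3bp-12bp-del-hom replicate 1, one of the libraries with a high sum of the fetal liver and yolk sac genes, was the lowest in Urod at 5.86 (6.03 to 6.07). It was the highest in Fech at 6.11 (5.76 to 5.79). XY 1bp-ins-hom replicate 5 was the lowest in Ahsp at 3.28 (3.57 to 3.62).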

How the results depend on the processing

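Depth limits the genes near 2 TPM most, and 3 libraries per wild type limit every comparison. The number of the 28 genes called moved as follows. XY WT against XX WT had 0, but 1 with RLE, 4 in 1 fit over all groups, 3 by DESeq2, 1 with the length trend removed and 0 to 7 without 1 library. XX 1bp-ins-hom against XX WT had 6, but 1 with no filter, 0 with the length trend removed and 0 to 6 without 1 library. XX 3bp-del-het had 4, but 2 in 1 fit, 0 with the length trend removed and 0 to 2 without 1 library. XX 3bp-del-hom had 7, but 4 with no filter, 2 with the length trend removed and 3 to 8 without 1 library, and XX 3bp-12bp-del-hom had 3, with 1 to 6 without 1 library. XY 1bp-ins-hom against XY WT had 0, but 3 in 1 fit and 8 by DESeq2. Against heterozygotes, XX 1bp-ins-hom had 1, but 0 with no filter, 3 in 1 fit, 3 by DESeq2 and 0 with the length trend removed; XX 3bp-del-hom had 1, but 2 with RLE, 2 by DESeq2 and 2 with the length trend removed; XY 1bp-ins-hom had 1, but 0 with no filter, 0 in 1 fit, 2 by DESeq2 and 0 with the length trend removed. Without 1 library these ran from 0 to 1, 0 to 2 and 0 to 1, the interactions of 3bp-del-hom and 3bp-12bp-del-hom from 0 to 2, and the sex difference over 6 genotypes from 5 to 6. The cause of these moves was not tested.

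Same-numbered replicates did not pair: in 0 of 15 comparisons were all their correlations over 0.1 (range -0.3 to 0.284). With the replicate block, the counts were 0 in XX 3bp-del-het, 1 in XX 3bp-12bp-del-hom, and against heterozygotes 2 in XX 1bp-ins-hom and 0 in XX 3bp-del-hom. The globin ratio difference with beta genes only was 0.06 between the wild types, 0.078 in XX 1bp-ins-het, 0.133 in XX 3bp-del-het, -0.013 in XY 1bp-ins-het and -0.006 in XY 1bp-ins-hom against its heterozygotes, and -0.266 in XY 1bp-ins-het with alpha genes only. The correlation with Hba-x changed sign for Epb41 (0.033 within groups) and for Urod (-0.067 with log2(TPM + 1)), and that scale called 17 of 27 genes. Of the values for single genes, 187 kept direction and call, 55 lost the call and 1 gained it.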
